A study of Rattus norvegicus with 8 samples.

Results

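The transcripts of 45 genes for peroxisomal enzymes and peroxins were examined in liver from rats on a control diet or on a high phosphorus (HP) diet. The members were listed by name from what their proteins do: 21 enzymes and transporters of lipid metabolism, 13 other enzymes and 11 peroxins, out of 14217 genes that a probe set of the array named alone. For each gene, the probe set with the highest mean was taken among those whose highest and lowest rat differed by at least 0.05 on the log2 scale. By this rule 25 of the 45 genes were measured (12 lipid enzymes, 9 other enzymes and 4 peroxins), 16 had only almost constant values and 4 (Acaa1a, Acaa1b, Ddo and Pipox) were not analysed here because no probe set carried their symbol alone.

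The animals were male Wistar rats with a labelled age of 8 weeks. All received the control diet (0.3% phosphorus) at first, and then 4 rats stayed on it (control 1 to 4) and 4 were fed the HP diet (1.2% phosphorus, HP 1 to 4) for 24 days. Whole liver RNA of each rat was hybridized to 1 Affymetrix array, and values are deposited log2 signals, so a difference of 1 is a doubling. A probe set's signal also depends on its probes, so levels were not compared between genes. Whole liver holds several cell types, and fewer cells of a type cannot be told apart here from less RNA per cell.

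Peroxisomes are single-membrane organelles that shorten very long and branched fatty acids, start ether lipid synthesis and hold oxidases whose hydrogen peroxide is removed by catalase. Peroxins import the enzymes, insert membrane proteins and divide the organelle. In rodent liver many of these genes are known targets of PPARα, a fatty acid-sensing nuclear receptor that binds DNA with RXR at a direct repeat of the half-site AGGTCA, spaced by a single base.

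Promoter sequence was therefore read for the members, as background to the values below. In the 250 bases before each transcription start (RefSeq, build GRCr8), AGGTCA, any base and AGGTCA were searched on both strands, with up to 2 mismatches in the 12 fixed letters. Ech1, Ephx2, Pex2 and Pex6 had no entry in the promoter table and were not searched. Matches were found for 4 of the other 41 members (9.76%) and for 1053 of all 33469 promoters (3.15%). With at most 1 mismatch no member had a match, against 0.368% of all promoters. Measured members with a match were Slc27a2, Amacr and Cat, or 3 of 22 in the table (13.6%), and the fourth gene was Ddo. Below are Slc27a2, the only one of them whose diets did not overlap, and Hacl1 and Pex11a, which had the largest differences of their groups and whose nearest stretch had 5 mismatches. Each line runs 5′ to 3′ on the gene's strand up to the base before the start, and capitals mark the match. The window is Slc27a2 at chr3:134257851-134258100 (+), Hacl1 at chr16:6869411-6869660 (-) and Pex11a at chr1:143096492-143096741 (-).
Slc27a2: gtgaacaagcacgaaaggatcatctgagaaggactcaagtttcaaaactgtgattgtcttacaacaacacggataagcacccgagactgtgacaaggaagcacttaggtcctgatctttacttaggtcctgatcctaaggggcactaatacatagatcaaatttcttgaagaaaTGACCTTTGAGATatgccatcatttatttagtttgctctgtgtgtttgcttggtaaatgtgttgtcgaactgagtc
Hacl1: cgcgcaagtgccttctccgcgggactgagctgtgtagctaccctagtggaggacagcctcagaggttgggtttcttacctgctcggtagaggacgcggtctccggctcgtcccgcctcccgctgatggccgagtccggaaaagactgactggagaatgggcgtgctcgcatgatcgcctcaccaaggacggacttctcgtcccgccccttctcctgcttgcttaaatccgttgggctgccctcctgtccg
Pex11a: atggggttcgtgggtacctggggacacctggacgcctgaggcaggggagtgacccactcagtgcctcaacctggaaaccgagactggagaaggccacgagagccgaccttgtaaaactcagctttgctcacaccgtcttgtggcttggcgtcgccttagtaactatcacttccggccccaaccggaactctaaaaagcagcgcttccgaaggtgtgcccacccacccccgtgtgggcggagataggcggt
The match of Slc27a2 lay on the other strand from -76 to -64, counted back from the start. In Amacr the matching run was AGACCAAAGGTCA, from -208 to -196, and in Cat it was AGGTCAGAGAGCA, from -169 to -157. A match is a likeness of letters only, and its absence says only that these letters are not in this window.

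Most of the peroxisomal transcripts differed little between the diets, and the larger differences were all toward higher signal in HP diet-fed rats. Ech1, Hacl1 and Pex11a were about 1.45-fold higher and Ephx2 1.35-fold higher on the HP diet, whereas the other 21 measured members differed by -0.15 to 0.12 on the log2 scale. Lipid enzymes had a median HP minus control difference of 0.04 with 8 of 12 positive, other enzymes -0.03 with 4 of 9 positive, and peroxins 0.01 with 3 of 4 positive. Over all 4155 probe sets spanning at least 0.05 the median difference was -0.02 and 43.5% were positive. Each group median was smaller in size than its SD between rats of a diet: 0.0563 for lipid enzymes, 0.0522 for other enzymes and 0.0536 for peroxins. Leaving out 1 rat could turn the signs of the group medians. The lipid median was -0.00417 without control 3, the other-enzyme median 0.0125 without control 2 and the peroxin median -0.0190 without HP 4.

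**Figure D1:**
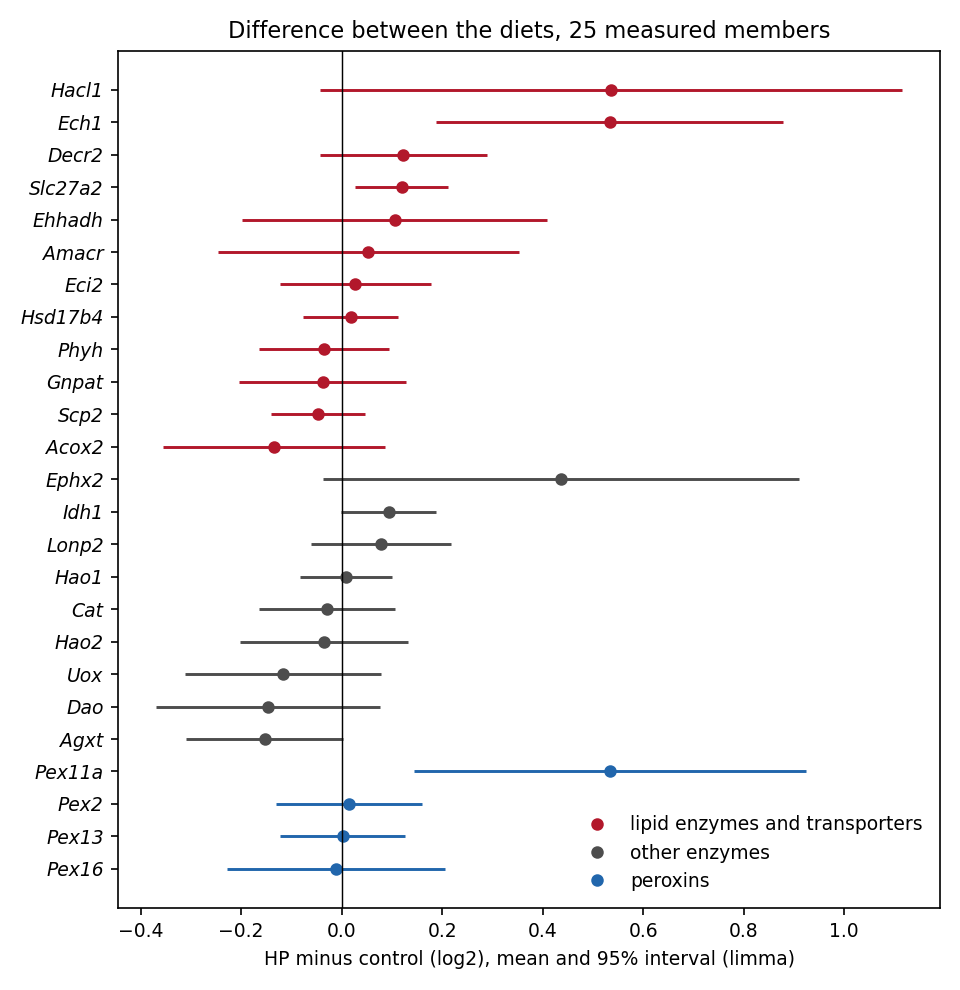
HP minus control difference (log2, horizontal axis) of the 25 measured members, as points with 95% intervals from limma, grouped into lipid enzymes and transporters, other enzymes and peroxins. Hacl1, Ech1, Pex11a and Ephx2 lie between 0.44 and 0.54, and all others lie within -0.15 to 0.12.

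Rank products, the method of the study, order all probe sets in each of the 16 HP minus control pairs and compare the ranks with 1000 permutations. At a false discovery rate (FDR) under 0.05 they called 4 of the 25 measured members higher on the HP diet (16%; Ech1, Hacl1, Ephx2 and Pex11a) and 0 lower. Over all 31042 probe sets 1.14% were called higher and 1.62% lower, and among those spanning at least 0.05 these shares were 8.52% and 12.1%. By limma 3 members were higher at an unadjusted p under 0.05 (12%; Ech1, Slc27a2 and Pex11a) and 0 were lower, with 5.37% higher and 7.29% lower over all spanning probe sets. With each array centred on its spanning probe sets that overall split became 297 higher and 223 lower instead of 223 and 303. After Benjamini-Hochberg adjustment over all 4155 probe sets limma called 0 members and 0% of the probe sets, and the adjusted p of the members ran from 0.278 to 0.995. All 4 HP diet-fed rats lay above all 4 control rats for 4 members (16%; Ech1, Slc27a2, Idh1 and Pex11a) and below them for 0, against 3.1% above and 4.07% below among all spanning probe sets. The members that count here were kept for spanning at least 0.05 over both diets, so these shares are a description. When rank products were run on the spanning probe sets alone, 0 members were called, with FDR of 0.0870 for Ech1, 0.0577 for Hacl1, 0.266 for Ephx2 and 0.0946 for Pex11a.

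Among the 7 measured genes of peroxisomal β-oxidation, Ech1 had the largest difference. Ech1, an isomerase that moves double bonds in the breakdown of unsaturated acids and is found in peroxisomes and mitochondria, had log2 signals of 10.54, 9.91, 9.98 and 10.50 in control 1 to 4. HP 1 to 4 had 10.58, 10.76, 10.82 and 10.90, so every HP diet-fed rat lay above every control rat, by a narrow margin over control 1. The difference was 0.53 ± 0.15 (SE, n = 4 per diet; FDR 0.0008 by rank products, adjusted p = 0.278 by limma). Ehhadh, the bifunctional hydratase and dehydrogenase of the classical pathway, differed by 0.11 ± 0.13 (SE), and its control rats, from 10.50 to 11.10, enclosed its HP diet-fed rats, from 10.72 to 11.02.

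The remaining β-oxidation genes did not pass either test. Decr2, the reductase of 2,4-dienoyl intermediates, differed by 0.12 ± 0.07 (SE), Eci2, an enoyl-CoA isomerase, by 0.03 ± 0.07, and Hsd17b4, the bifunctional protein for branched chains and bile acid precursors, by 0.02 ± 0.04. Acox2, an acyl-CoA oxidase, differed by -0.13 ± 0.10. The diets overlapped for all of them: Acox2 lay from 10.83 to 11.19 in control rats and from 10.75 to 11.13 in HP diet-fed rats, and Decr2 lay from 10.36 to 10.66 and from 10.54 to 10.70. Eci2 lay from 11.14 to 11.40 and from 11.17 to 11.39, and Hsd17b4 from 11.94 to 12.08 and from 11.99 to 12.08. Scp2, whose longer product is a thiolase, had 13.16, 13.13, 13.17 and 13.13 in control rats and 13.08, 13.11, 13.02 and 13.21 in HP diet-fed rats. For Scp2 the HP values enclosed the control values, with a difference of -0.05 ± 0.04 (SE). Over these 7 genes the median difference was 0.03, from -0.13 to 0.53, with 5 positive.

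Slc27a2, which carries and activates very long chain fatty acids, was the single measured gene for entry of acyl chains. Control 1 to 4 had 12.91, 12.82, 12.76 and 12.92 and HP 1 to 4 had 12.94, 12.98, 12.98 and 12.99. All HP diet-fed rats lay above all control rats, within a narrow range (SD 0.024 against 0.075). The difference of 0.12 ± 0.04 (SE, 1.09-fold) had an unadjusted p of 0.0168 and an adjusted p of 0.332 by limma, and its FDR by rank products was 0.0506. That FDR was 0.0360 without control 1 and 0.0443 without control 4, from 0.0672 to 0.160 without each other rat, and 0.956 when only spanning probe sets were ranked. The unadjusted limma p was 0.445 with no span filter, 0.0507 with a span of at least 0.2 and 0.0533 with plain empirical Bayes.

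Branched fatty acids whose methyl group blocks β-oxidation pass through α-oxidation, and its measured enzymes were Hacl1 and Phyh. Hacl1, the lyase that removes a carbon, had 12.39, 11.37, 11.30 and 11.07 in control rats and 12.01, 12.07, 12.33 and 11.87 in HP diet-fed rats. Control 1 had the highest value of all 8 rats, and each of the other control rats lay below each HP diet-fed rat. The difference was 0.54 ± 0.26 (SE; FDR 0.00205 by rank products, adjusted p = 0.416 by limma) and ran from 0.38 ± 0.26 without control 4 to 0.82 ± 0.11 without control 1. Phyh, the hydroxylase of the preceding step, had 13.00, 12.84, 12.83 and 12.83 in control rats and 12.82, 12.82, 12.96 and 12.75 in HP diet-fed rats, with a difference of -0.04 ± 0.06 (SE). Its second spanning probe set gave -0.11 ± 0.08, so neither pointed upward. Whether the differences of Hacl1 and Phyh differ from each other was not tested.

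Amacr, the racemase that makes branched acyl chains fit for β-oxidation, differed by 0.05 ± 0.13 (SE) and spread widely in both diets, from 11.84 to 12.33 in control rats and from 11.76 to 12.20 in HP diet-fed rats. Gnpat, the acyltransferase of the opening step of ether lipid synthesis, had 7.73, 7.80, 7.86 and 7.72 in control rats and 7.63, 7.79, 7.77 and 7.77 in HP diet-fed rats. The diets overlapped for Gnpat, with a difference of -0.04 ± 0.07 (SE). Counting Ephx2 and Hao2 among the lipid enzymes left the lipid median at 0.04.

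**Figure D2:**
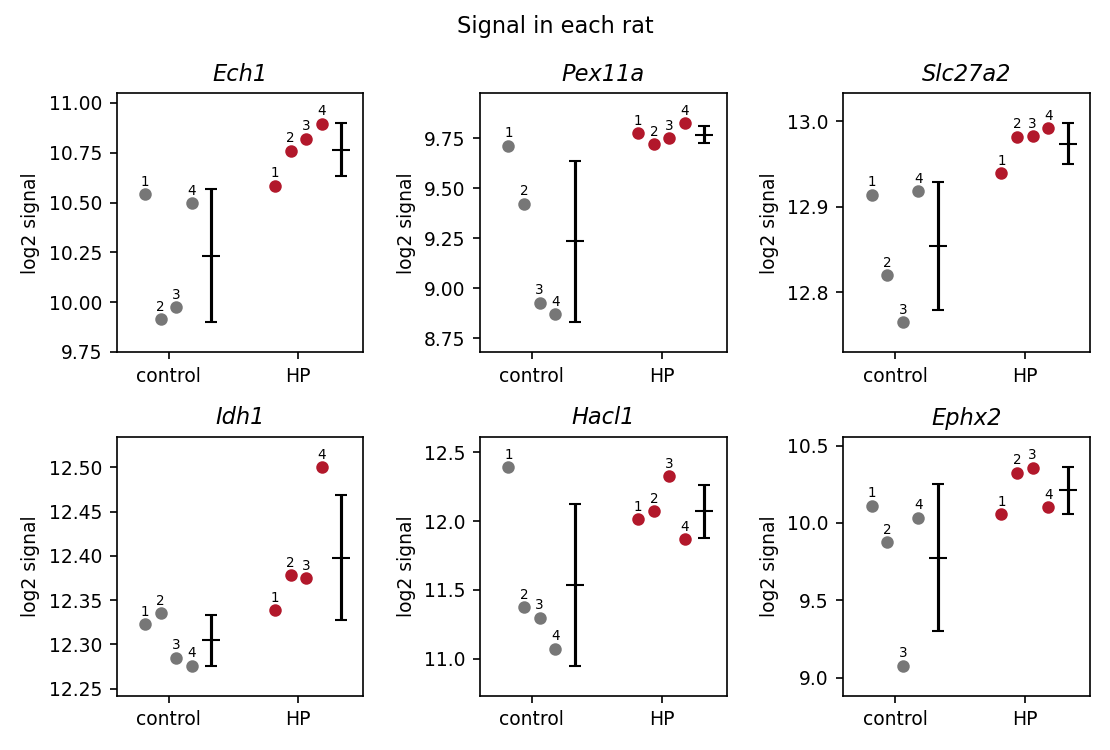
Log2 signal of Ech1, Pex11a, Slc27a2, Idh1, Hacl1 and Ephx2 in each rat (points, numbered by rat), with the mean and SD of each diet as black bars; the vertical axes differ between genes. HP points lie above all control points for Ech1, Pex11a, Slc27a2 and Idh1, whereas control 1 is among or above the HP points for Hacl1 and Ephx2.

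The oxidases of the organelle were measured for 4 of 6 listed genes, and none passed a test. Uox, urate oxidase, differed by -0.12 ± 0.09 (SE), Hao2, a long-chain hydroxy acid oxidase, by -0.03 ± 0.07 and Hao1, glycolate oxidase, by 0.01 ± 0.04. Uox lay from 11.97 to 12.30 in control rats and from 11.91 to 12.21 in HP diet-fed rats, Hao2 from 12.68 to 12.95 and from 12.70 to 12.85, and Hao1 from 12.47 to 12.62 and from 12.52 to 12.57, so each overlapped. Dao, which oxidizes D-amino acids, had 9.33, 9.70, 9.47 and 9.22 in control rats and 9.30, 9.37, 9.23 and 9.24 in HP diet-fed rats. Control 2 stood highest and the diets overlapped, with a difference of -0.15 ± 0.10 (SE). The median of the 4 oxidases was -0.08, with 3 negative.

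Agxt, which converts glyoxylate to glycine with alanine as donor, differed by -0.15 ± 0.07 (SE; unadjusted p = 0.0546 and adjusted p = 0.399 by limma). Its control rats lay from 9.81 to 9.90 and its HP diet-fed rats from 9.61 to 9.88, so the diets overlapped. Cat, catalase, had 12.86, 12.87, 12.79 and 12.94 in control rats and 12.98, 12.70, 12.81 and 12.85 in HP diet-fed rats. The HP values of Cat enclosed the control values, and the difference was -0.03 ± 0.06 (SE), with a 95% interval of -0.16 to 0.11.

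Ephx2, the soluble epoxide hydrolase, which is found in cytosol and peroxisomes, was the one gene outside the lipid and peroxin groups that rank products called. Control 1 to 4 had 10.11, 9.88, 9.08 and 10.04 and HP 1 to 4 had 10.06, 10.33, 10.36 and 10.10. The diets overlapped, since control 1 lay above HP 1 and HP 4, and control 3 was far below the other 7 rats. The difference of 0.44 ± 0.21 (SE; FDR 0.00656, adjusted p = 0.416 by limma) was 0.20 ± 0.10 without control 3, where the FDR was 0.0548. Its FDR was also above the threshold without HP 2 (0.0728) and without HP 3 (0.0674).

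Idh1, an NADP-dependent isocitrate dehydrogenase of cytosol and peroxisomes, had 12.32, 12.34, 12.29 and 12.28 in control rats. HP 1 to 4 had 12.34, 12.38, 12.38 and 12.50, each above every control rat, although HP 1 and control 2 round to the same value. The difference was 0.09 ± 0.04 (SE; FDR 0.0667 by rank products, adjusted p = 0.398 by limma), or 0.06 without HP 4. Lonp2, a protease of the peroxisomal matrix, differed by 0.08 ± 0.06 (SE) with overlapping diets, from 11.99 to 12.26 in control rats and from 12.11 to 12.26 in HP diet-fed rats.

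Pex11a, a membrane peroxin that elongates the organelle before it divides, had the one large difference among the 4 measured peroxins. Control 1 to 4 had 9.71, 9.42, 8.93 and 8.87, and HP 1 to 4 had 9.78, 9.72, 9.75 and 9.82. All HP diet-fed rats lay above all control rats and close together (SD 0.0440), whereas the control rats were spread (SD 0.404) and control 1 nearly reached the HP values. The difference was 0.53 ± 0.17 (SE; FDR 0.000864 by rank products, unadjusted p = 0.0128 and adjusted p = 0.320 by limma). A second spanning probe set of Pex11a had 7.27, 6.98, 6.70 and 6.53 in control rats and 7.16, 7.35, 7.30 and 7.25 in HP diet-fed rats. There control 1 lay above HP 1 and HP 4, and the difference was 0.40 ± 0.16 (SE; FDR 0.00610, adjusted p = 0.366 by limma).

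The 3 other measured peroxins showed no difference past either test. Pex13, part of the docking complex of the import channel, had 10.41, 10.50, 10.39 and 10.35 in control rats and 10.44, 10.35, 10.36 and 10.51 in HP diet-fed rats, a difference of 0.00 ± 0.06 (SE). Pex2, a ubiquitin ligase that recycles the import receptor, had 8.40, 8.42, 8.47 and 8.34 against 8.31, 8.43, 8.46 and 8.49, a difference of 0.02 ± 0.06 (SE). Pex16, which brings membrane proteins to the organelle, differed by -0.01 ± 0.10, with control rats from 8.62 to 8.82 and HP diet-fed rats from 8.42 to 8.83. For each of these 3 genes the diets overlapped. The 95% intervals of the differences were -0.12 to 0.13 for Pex13, -0.13 to 0.16 for Pex2 and -0.23 to 0.21 for Pex16.

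**Figure D3:**
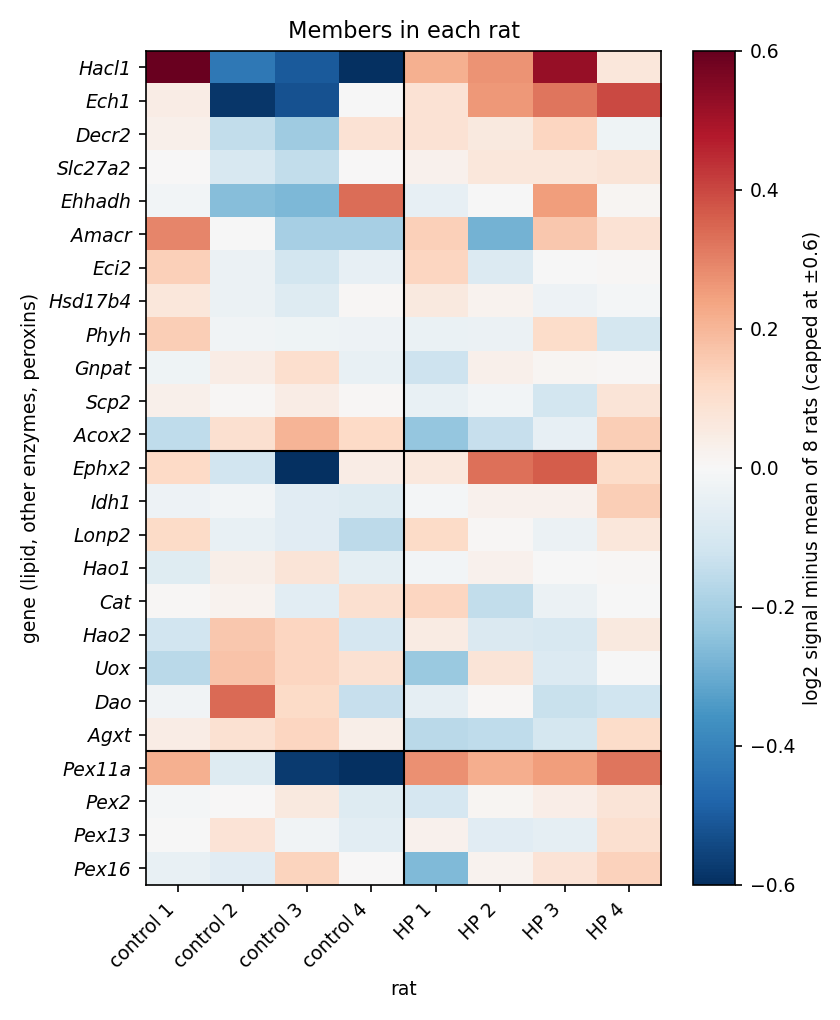
Log2 signal of each measured member (rows, ordered by group and difference) in each rat (columns), minus the mean of that gene over the 8 rats; red is higher, blue is lower, and the color scale is capped at ±0.6. In Hacl1, Ech1, Ephx2 and Pex11a the lowest rats are control rats, and control 1 is the highest control rat.

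The 4 members called by rank products were uneven among the control rats. Control 1 was the highest of the 4 control rats for each of them, and the control SD exceeded the HP SD for each, with a median of 0.440 against 0.142. The same held outside the 45 genes for Cpt1a, Eci1 and Decr1 of mitochondrial β-oxidation and for the peroxisomal genes Crat, Acot3 and Tysnd1, all called higher by rank products, but not for Crot and Nudt7. Over the 25 measured members the control SD was the larger for 15 (60%), and over all spanning probe sets for 67.9%. Among all 25 members control 1 was the highest control rat for 9 and control 4 the lowest for 11. The lowest HP diet-fed rat was HP 1 for 12 members, and the highest was HP 4 for 11.

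Without control 1 rank products called 6 members higher, these 4 with Slc27a2 and Lonp2. The limma count at an unadjusted p under 0.05 was then 6 higher and 2 lower members, against 3 and 0 with all rats. Without control 4 limma counted 5 higher and 1 lower members and rank products called 7 higher. The counts over all probe sets moved too. Without control 1 limma counted 375 higher and 475 lower of 4155, against 223 and 303 with all rats. Rank products then called 587 higher and 251 lower of 31042, against 354 and 503. Without control 4 these counts were 212 and 310 by limma and 393 and 120 by rank products. No member passed limma's adjusted threshold in either case, and the smallest adjusted p of any member was 0.0517.

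The 16 members with almost constant values were Acox3, Pecr, Abcd2, Abcd3, Agps, Far1, Mlycd, Prdx5, Nudt12, Pex3, Pex5, Pex6, Pex7, Pex10, Pex14 and Pex19. They include the importer of fatty acyl-CoA Abcd3, the ether lipid enzymes Agps and Far1, and the import receptors Pex5 and Pex7. Their highest and lowest rats differed by 0.000127 to 0.000917, far under the differences of Slc27a2 or Idh1. Their mean signals ran from 5.95 to 12.09, so not all were dim. Just inside the threshold were Hsd17b4 (span 0.142), Hao1 (0.148) and Pex13 (0.165), and just outside it Agps (0.000917), Pex19 (0.000566) and Nudt12 (0.000555), with no member in between. The summary used by the authors gives such values where it finds little shared signal among the probes of a set, and they do not show that the transcript was alike in all rats. Of all probe sets 13.4% spanned at least 0.05.

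**Figure D4:**
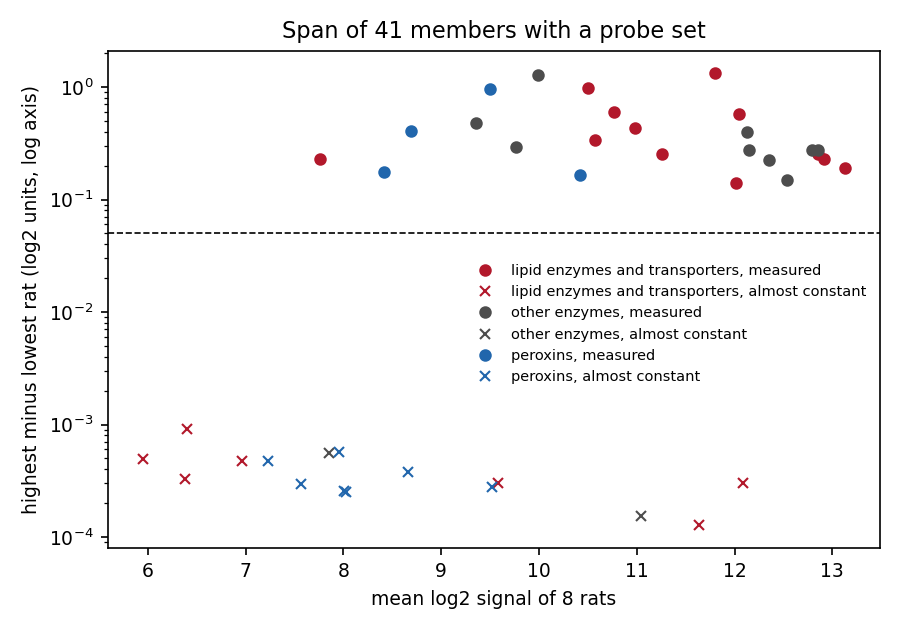
Span over the 8 rats (highest minus lowest, log2 units on a log axis) against the mean log2 signal for the 41 members with a probe set; filled points are measured, crosses almost constant, colors mark the groups and the dashed line is the threshold of 0.05. Measured members span 0.142 to 1.32 and almost constant ones less than 0.001, over a wide range of mean signal.

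Of the members listed as PPARα targets in rodents, 9 of 14 were measured. Rank products called 3 of them higher (Ech1, Ephx2 and Pex11a), limma counted 3 at an unadjusted p under 0.05 and 0 after adjustment, and 8 of 9 differences were positive with a median of 0.12. Over all spanning probe sets 8.52% were called higher by rank products, 5.37% were counted higher by limma and 43.5% were positive, and on spanning probe sets alone rank products called 0 of these 9. Cat was the exception at -0.03. The receptor gene Ppara was itself almost constant, at 6.24 in every rat, and Rxra, its partner, was also almost constant at 6.95. Among 10 listed nuclear receptors and coregulators 6 were measured. Rank products called Ppargc1a (0.28 ± 0.19, SE) and Nr1h4 (0.19 ± 0.10) higher and Ppargc1b (-0.29 ± 0.21) lower, while limma counted 0 at an unadjusted p under 0.05 and 0 after adjustment. The diets overlapped for all 6, and over all spanning probe sets 8.52% were called higher and 12.1% lower. Ppargc1a had 3 spanning probe sets and Hnf4a 2, and for each gene only that with the highest mean was read. For Hnf4a that probe set differed by -0.10 and was not called, whereas the paper lists Hnf4a as higher on the HP diet. The FDR of these genes on spanning probe sets alone is not given here.

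A further list of 30 peroxisomal genes outside the 45 had 11 measured, of which rank products called 5 higher and 1 lower, against 8.52% and 12.1% of all spanning probe sets. On spanning probe sets alone they called 0 of these 6. Crot and Crat, which move medium chains and acetyl groups onto carnitine, differed by 0.37 ± 0.11 and 0.56 ± 0.16 (SE). Crot had 10.64, 10.40, 10.26 and 10.64 in control rats and 10.69, 10.87, 10.73 and 11.11 in HP diet-fed rats, without overlap. Acot3, a thioesterase that frees fatty acids from coenzyme A, had 7.02, 6.88, 6.73 and 6.83 against 7.21, 7.44, 7.23 and 7.23, also without overlap, a difference of 0.41 ± 0.10 (SE; adjusted p = 0.217 by limma). Nudt7, which degrades coenzyme A, differed by 0.20 ± 0.08, Tysnd1, which trims imported enzymes, by 0.21 ± 0.08, and Xdh, xanthine dehydrogenase, by -0.23 ± 0.08. The list's median was 0.07, limma counted 6 higher and 1 lower at an unadjusted p under 0.05 (5.37% and 7.29% over all spanning probe sets), and 0 passed after adjustment.

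The mitochondrial route gives a comparison outside the peroxisome, with 14 of 18 listed β-oxidation genes measured. Their differences were positive for all 14, from 0.01 to 0.44 with a median of 0.09, against 5 of 7 positive and a median of 0.03 for the peroxisomal β-oxidation genes. Rank products called 3 of the 14 higher: Cpt1a (0.39 ± 0.13, SE), which controls entry of fatty acids, Eci1 (0.44 ± 0.14), an isomerase, and Decr1 (0.27 ± 0.11), a reductase. Hadhb (0.15 ± 0.06), which the paper lists as higher, was just over the threshold here, at an FDR of 0.0501. Limma counted 5 of the 14 higher at an unadjusted p under 0.05 and 0 after adjustment, and the diets overlapped for every one of the 14. On spanning probe sets alone rank products called 0 of those 3. Over all spanning probe sets 43.5% of differences were positive and rank products called 8.52% higher. Limma counted 5.37% higher at an unadjusted p under 0.05, and in 3.1% all HP values lay above all control values. Whether the mitochondrial and peroxisomal lists differ was not tested.

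Cell type markers were read in the same arrays. The mean log2 signal of 5 measured of 10 hepatocyte markers was 12.76 to 12.84 in control rats and 12.65 to 12.82 in HP diet-fed rats, with Alb almost constant at 14.53, the top of the scale. Cps1, a hepatocyte marker of the urea cycle, had a lower call from rank products (-0.27 ± 0.06, SE), with an adjusted p of 0.217 by limma. Over all spanning probe sets rank products called 12.1% lower. Of the 5 hepatocyte differences 3 were positive and 2 negative (Cps1 and Hnf4a), with a median of 0.003. Hnf4a had another spanning probe set that was not read. The paper lists Cps1 among urea cycle genes with lower expression on the HP diet. For 4 measured of 10 sinusoidal endothelial markers the means were 9.46 to 9.60 and 9.58 to 9.75, with Stab2 (0.23 ± 0.07) and Kdr (0.26 ± 0.06) called higher by rank products. Over all spanning probe sets 8.52% were called higher. The adjusted p by limma was 0.320 for Stab2 and 0.217 for Kdr, and their FDR on spanning probe sets alone is not given here. Kupffer cell markers (11 of 14) had 8.84 to 9.22 and 8.84 to 9.05, stellate cell markers (6 of 11) 8.21 to 8.45 and 8.35 to 8.47, and none of 5 cholangiocyte markers was measured. Of the 11 Kupffer cell differences 9 were negative (median -0.05). All 4 endothelial differences (median 0.19) and all 6 stellate cell differences (median 0.07) were positive, against 43.5% of all spanning probe sets. Whether the share of any cell type differed between the diets, and its part in the results for the peroxisomal genes, was not tested.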

How the data were processed

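Liver RNA of 8 rats, 4 per diet and separate animals per the labels, was measured on 1 Affymetrix array each. The deposited values are log2 signals: according to the methods and the submitters' processing notes, the authors summarized the probes of each probe set with FARMS in R 2.13.1. How the arrays were scaled to each other is not stated in the methods or labels read here, and no scaling was added. Array medians were all 6.65 over all probe sets, but most of these were almost constant, so that median says little about scaling. Over spanning probe sets the array medians ran from 8.76 to 8.81, and arrays correlated at r = 0.968 to 0.992 (28 pairs). The number of arrays limits the precision, and limma's p-values rest on the spread between these rats. The FDR of rank products comes from values shuffled among probe sets within each array. It therefore depends on which probe sets are ranked and does not measure that spread.

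Of 31042 probe sets (57 array controls left out), 20826 had 1 gene symbol in GEO's platform annotation, 436 several and 9780 none, and only the first were named. Probe sets spanning under 0.05 entered rank products, which rank all probe sets, but not limma. Rank products followed the study (1000 permutations, FDR under 0.05, each direction) and were written in Python 3.11.15 with numpy 2.4.6. Limma 3.58.1 in R 4.3.3 (trend, robust, two-sided) was run on 4155 probe sets with Benjamini-Hochberg adjustment. Both were tested on simulated data, where rank products also made calls among probe sets with no simulated difference. Every member may be named. Values of every rat were given for members called by rank products, with an unadjusted limma p under 0.05 or without overlap, and for those with the highest or lowest mean of each group. The members and all gene lists were chosen with earlier results of these data known, so no list is independent evidence. Alternatives were centring, quantile normalization, other filters and probe set rules, plain empirical Bayes, array weights, a replicate block, other group borders and leaving out each rat. Promoter sequences are from RefSeq (GRCr8).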

Additional observations from a re-analysis of the deposited data

Results flagged for a closer look

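Among 50 sets of 4 rats, the 25 measured members in each diet, 2 held a rat far from the other 3, where about 1 in 20 sets, or 2.5, would do so by chance. For Phyh control 1 was at 13.00, whereas the other control rats were at 12.83 to 12.84. For Gnpat HP 1 was at 7.63, whereas the other HP diet-fed rats were at 7.77 to 7.79. Neither gene passed a test between the diets.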

How the results depend on the processing

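With 4 rats per diet, limma's adjusted count of members was 0 under every alternative run. The count at an unadjusted p under 0.05 was 6 higher and 2 lower with array weights, against 3 and 0. Over all 4155 probe sets array weights gave 385 higher and 490 lower, against 223 and 303. The member count was 2 higher without the span filter, with plain empirical Bayes or with a minimum span of 0.2 (each time without Slc27a2). Over all probe sets these gave 1315 higher of 31042, 215 of 4155 and 176 of 3676. When each rat was left out, the member count ran from 3 to 6 higher and from 0 to 2 lower, both most without control 1. The counts over all probe sets were then also highest without control 1, at 375 higher and 475 lower. The labels do not say that rats with the same replicate number were paired. Deviations of same-numbered rats correlated at 0.479, 0.0308, -0.123 and -0.197, and those of other pairs at -0.480 to 0.514. So few rats cannot decide whether the numbers pair them. With the number as a replicate block limma counted 3 higher and 1 lower (Uox) members, and over all probe sets 192 higher and 312 lower. Rank products called 0 members when only spanning probe sets were ranked (25 higher and 16 lower in all, against 354 and 503). They called 3 to 7 members higher and 0 to 1 lower (Agxt, without HP 4) when each rat was left out, and 4 higher with centring. Over all probe sets leaving out each rat gave 85 to 587 higher and 71 to 539 lower, and centring gave 353 and 503. The medians ran from -0.00417 to 0.0983 for lipid enzymes, from -0.0572 to 0.0125 for other enzymes and from -0.0190 to 0.0636 for peroxins when each rat was left out. A span of at least 0.2 left 2 peroxins with a median of 0.262, which fewer genes account for. Apart from these, 98 group counts and medians stayed within 1.5 times the count or within the spread between rats. Among them were the medians with centring, at 0.0608 for lipid enzymes, -0.00824 for other enzymes and 0.0293 for peroxins. For the 6 genes with values by setting, 159 values kept their direction and their side of the adjusted threshold or of the FDR, 7 lost a rank product call and 2 gained one, and none of their differences turned its sign. At an unadjusted p under 0.05, 3 limma values lost their side (Slc27a2) and 6 gained it: Hacl1 and Ephx2 with array weights (0.00451 and 0.0152) or without control 1, and Idh1 with centring (0.0372) or without HP 1. The causes were not tested.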
